A study of Mus musculus with 14 samples.

Results

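The baseline transcriptome described here is that of satellite cells sorted from the skeletal muscle of Young mice, measured on 3 of the 14 arrays of the series. On those arrays, 28270 of 36406 genes (77.7%) were well above background on every array, a flag that the scanner software sets for each spot, and these genes were ranked by their signal. The Young mice were of the C57BL/6 strain and aged 2 months (Young 1 and Young 2) or 3 months (Young 3), and the labels call them male, which their sex-linked transcripts, given below, go against on all 3 arrays. The sort kept cells with integrin alpha 7 and CD34 on their surface and discarded cells with CD31, CD45, CD11b or Sca1, as for every sample of the series. The nearest group is Old C57BL/6 mice of 22, 23 and 24 months (3 arrays). The other arrays came from Geriatric C57BL/6 mice (2 arrays, 29 and 30 months) and from SAMR1 and SAMP8 mice, 12 months of age with 3 arrays per strain, which were bred for resistance to and proneness to early senescence. The labels do not say whether a sample is 1 animal or a pool, and the mice carried no transgene that the labels name.

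Satellite cells are the stem cells of skeletal muscle. They lie between the muscle fibre and the basal lamina around it, express the transcription factor Pax7, and in uninjured muscle rest outside the cell cycle, a state that Notch signalling is known to maintain. After injury they switch on Myod1, divide, and then either differentiate through Myog into new muscle or return to rest. Because the tissue has to be cut, digested and sorted before RNA can be taken, the cells leave their niche some time before the measurement.

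RNA was amplified by whole-transcriptome amplification and the resulting cDNA was labelled with Cy3, so that each single-colour array carries 1 sample. Levels are log2 of the processed spot signal minus the 75th percentile of that array, so a level of 0 is the brightness that 75% of the probes do not exceed. Between 79.6% and 83.0% of the 55681 probes were well above background on each Young array, 94 to 136 spots per array were outliers, and no spot was saturated. A gene was represented by its brightest probe that was well above background on all 3 arrays, so the ranking orders probe signals and not amounts of RNA. With 3 arrays, the precision of each mean is limited.

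Passing the background flag was a weak test of presence. Among 1409 genes of olfactory, vomeronasal, taste and trace amine receptors, which muscle stem cells are not known to use, 40.6% also passed on all 3 arrays, against 80.4% of 19631 genes with a symbol. Receptor genes nevertheless lay low, with a median level of −5.17 against −1.43 for genes with a symbol, and none was in the top 10% of the ranking. The level that 95% of receptor genes stayed below was −0.97, and it is used below as the reference for signal beyond background. It was exceeded by 40.1% of all genes measured. Base composition moved with this background, since receptor probes with under 40% G and C had a median level of −6.47, those with 40% to 50% a median of −4.03 and those with 50% or more a median of −2.38. Intergenic intervals, designed to find long non-coding RNA, passed the flag in 91.1% of 4610 cases. Of 1067 intervals probed on both strands 91.3% were well above background on both. These shares count a name as passing if any of its probes passed, and intervals held more probes per name than genes did. By probe, 50.87% of interval probes with under 40% G and C passed, against 66.85% of probes for genes with a symbol. The shares were 78.77% and 82.38% at 40% to 50%, and 97.5% and 97.07% at 50% or more.

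**Figure D1:**
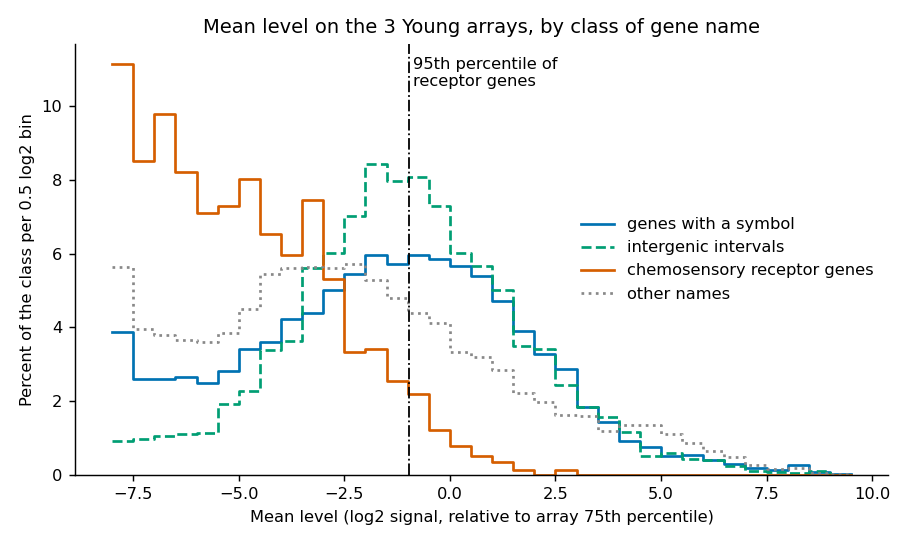
Distribution of mean levels (log2 signal relative to each array's 75th percentile, x axis) on the 3 Young arrays as the percent of each class per bin of 0.5 (y axis), for genes with a symbol, intergenic intervals, chemosensory receptor genes and genes with other names. Receptor genes pile up at the left, with a median of −5.17, and 95% of them lie left of the dash-dotted line at −0.97, whereas the median gene with a symbol lies at −1.43.

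Most probes at the top of the ranking held short sequences that recur in the promoters of several genes. A probe was called repeat-bearing where any 16 consecutive bases of its 60, on either strand, occurred in the promoters (250 bases before to 50 after the gene start) of at least 5 of the 27025 mouse genes in a RefSeq promoter table of build GRCm38.p6. This held for 3.01% of all ranked genes but for 158 of the 200 highest (79%), 34.3% of ranks 201 to 500, and 1.49% of genes below the top 10%. Among the 20 highest it held for 13. Ranks 1 (9.33) and 2 (9.26), named by transcript only, and the intergenic intervals at ranks 6 (8.99) and 9 (8.93) were not repeat-bearing. The median level was higher the more promoters shared a run, from −2.47 for probes with no such promoter to 4.32 for 30 to 99 promoters and 7.91 for 100 or more. The threshold of 5 genes was chosen after the values were seen. It is not complete, since Triobp (8.62 ± 0.23, SD, n = 3), which is just outside it with 4 promoters, had another probe at −7.62, and Irak2 (7.87), with 1 promoter, another at −2.76.

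Windows of 30 bases from bright repeat-bearing probes show what they share. Each is printed 5′ to 3′ as deposited, with capitals marking the shared run. F10 and Elk1, the genes of coagulation factor X and of a growth-factor-responsive transcription factor, carried the same run, found in promoters of 42 genes (0.155% of genes in the table). The runs of Slc10a1, a bile acid transporter of liver, of F10 and of Elk1 resemble the B1 family of short interspersed repeats, and that of Exosc2, an RNA exosome subunit, the B2 family. Oprm1 (the mu opioid receptor), Itgam (CD11b, a myeloid integrin), Snap25 (a synaptic protein) and Mcam (CD146, of vessel walls) carried a CA or TG microsatellite, whose run occurred in promoters of 138 genes (0.511%). The probe of Trp63, a regulator of epidermis, held a GCA repeat shared by 40 genes.
Slc10a1: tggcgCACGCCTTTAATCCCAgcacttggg
F10: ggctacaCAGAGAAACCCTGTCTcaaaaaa
Elk1: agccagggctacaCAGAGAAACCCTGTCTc
Exosc2: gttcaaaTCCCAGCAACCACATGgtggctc
Oprm1: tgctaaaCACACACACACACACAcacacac
Itgam: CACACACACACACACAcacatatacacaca
Snap25: CACACACACACACACAcacaaagtggattt
Mcam: tttgaggTGTGTGTGTGTGTGTGtgtatac
Trp63: cgtacagGCAGCAGCAGCAGCAGcagcacc

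The probes of 6 of the 7 satellite cell markers, in contrast, shared no 16-base run with the promoters of 5 or more genes. Myod1 is the exception. Its only probe holds a run of T and G found in promoters of 48 genes (0.178%), so the level given for Myod1 below rests on a repeat-bearing probe. The windows are the middle 30 bases of each probe, except for Myod1, where the window is set around the run.
Pax7: gttttcccaactgtctcatgcttttgtgaa
Cd34: ttgggtgtattctcttctgaataaacgtga
Vcam1: agtaacctttactcccgtcattgaggatat
Calcr: aggatgttttttcaatcacagtgttacctg
Itga7: gctgtaccagtccagtggttttgtctattt
Myf5: aataacttgataaataaatgtactattatt
Myod1: ccttcagTTGTTTGTTTGTTTTTtcatgcg

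The deposited mm9 coordinates place the Pax7 probe at chr4:139294364-139294423, Cd34 at chr1:196787392-196787451, Vcam1 at chr3:115828953-115829012, Calcr at chr6:3635940-3635999, Itga7 at chr10:128395274-128395333, Myf5 at chr10:106919974-106920033 and Myod1 at chr7:53633956-53634015. The bright Itgam probe lies at chr7:135261755-135261814 and the bright Slc10a1 probe at chr12:82056539-82056598. Which exon or intron each probe falls in was not analysed here, because no annotation of this build was used.

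Other probes of the same genes did not follow the repeat-bearing ones. Of the 111 genes with a symbol among the 200 highest that were ranked through a repeat-bearing probe, 74 had a further probe. Its median level was −1.62, and it lay a median of 9.83 log2 below the ranked probe, a gap whose sign is fixed because the ranking rule picked the brightest probe, and in which further probes below background were counted. For 10 genes among the 200 highest that were ranked through a probe that is not repeat-bearing and had a further probe, the median gap was 3.77 and the widest 16.24. Slc10a1 read 9.11, 9.02 and 9.22 on Young 1, 2 and 3 through the probe shown and −1.35, −0.26 and −0.41 through its other probe. Itgam read 8.51, 8.03 and 8.37 through the CA probe, whereas its 2 other probes averaged −1.63 and −1.73. Trp63 read 7.95, 7.70 and 7.96 through the GCA probe and −4.83 or less, as a mean, through 3 others. Disagreement between probes was common without repeats as well: over 4157 genes with several probes above background and none repeat-bearing among them, the median range between probes was 1.67. Gapdh, a glycolytic enzyme with 8 probes, spanned 4.02 to 7.37.

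**Figure D2:**
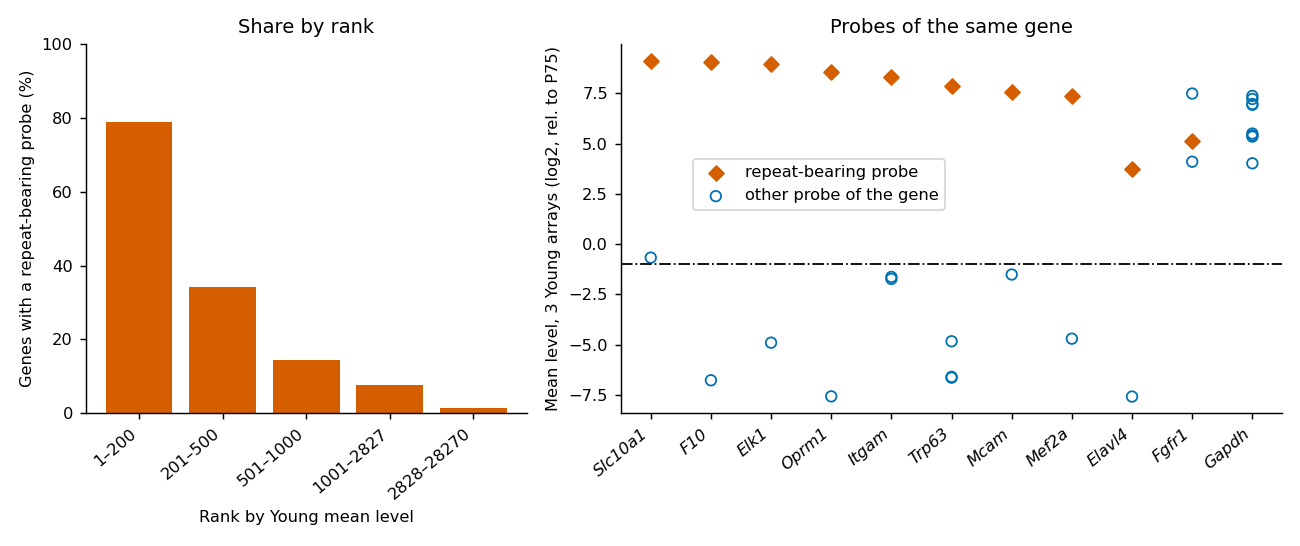
Left, percent of genes whose ranked probe is repeat-bearing (y axis) by rank on the Young arrays (x axis), which falls from 79% in ranks 1 to 200 to 1.49% beyond rank 2827. Right, mean level on the 3 Young arrays (log2, relative to the 75th percentile) of every probe of 11 genes, with repeat-bearing probes as diamonds and the others as circles; the dash-dotted line is the receptor reference. For Slc10a1 the 2 kinds of probe lie at 9.12 and −0.67, and for Oprm1 at 8.55 and −7.57.

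Of the 20 highest genes with a symbol, 18 were ranked through a repeat-bearing probe, the exceptions being Triobp and Fosb. Leaving out repeat-bearing probes, an alternative chosen after seeing the data, ranked 27669 genes. Its leading entries included Fosb, a subunit of the AP-1 transcription factor (8.45, 8.53 and 8.49 on Young 1, 2 and 3), the ribosomal protein gene Rps15 (8.04, 7.47 and 7.76), Tpt1, a growth-related protein (7.71, 7.46 and 7.53), the fibroblast growth factor receptor Fgfr1 (7.34, 7.58 and 7.54), Rpl41 (7.64, 7.16 and 7.31) and Gapdh (7.43, 7.27 and 7.40). Junb, Jun, Ubb (a ubiquitin precursor), Eef1a1 (a translation elongation factor), Atf4 (a stress-response transcription factor) and Dag1 (dystroglycan, a laminin receptor) followed among the first 105 ranks. Genes whose probes shared a run with fewer than 5 promoters ranked there too. Among them were Cnnm3 (8.41, 3 promoters), Cplx2 (7.68, 2 promoters), Dpysl5 (7.26, 4 promoters), Mafa (7.14, 4 promoters) and Nhlh1 (6.93, 4 promoters). Whether repeats raised their signals was not tested.

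Of 97 cytosolic ribosomal protein genes, 87 were in the top 10% of the ranking, which holds 10% of ranked genes by construction and 7.8% of all genes measured. The median level of this family was 5.69 against −1.84 for all genes. Of 11 genes encoded by the mitochondrial genome, 10 were in the top 10%, led by ND2 (6.38, 6.47 and 6.40), COX1 (6.50, 6.33 and 6.42) and ND5 (6.29, 6.54 and 6.41). AP-1 and early growth response factors, which cells induce quickly on stimulation, had 10 of 16 members there (median 4.41). Nuclear genes of oxidative phosphorylation had 32 of 79 members there (median 2.65), SR and hnRNP splicing factors 13 of 33 (median 2.73), translation factors 20 of 66 (median 1.60) and proteasome subunits 11 of 40 (median 2.14). Mitochondrial ribosomal proteins lay lower, with 5 of 76 in the top 10% and a median of 0.55. Families tied to other tissues stayed low: potassium channels had 1 of 95 members in the top 10%, keratins 1 of 46 and defensins none of 59.

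Genes of satellite cell identity and quiescence were high as a group. All 42 on the list were well above background on the 3 arrays, 36 exceeded the receptor reference, 20 were in the top 10%, and the median level was 2.79. None of these levels came from a repeat-bearing probe. The growth factor receptors Fgfr1 (7.49 ± 0.13, SD, n = 3) and Fgfr4 (5.17), the adhesion receptor Dag1 (6.57 ± 0.09), the antioxidant enzyme Gpx3 (6.29), the transcription factor Nfix (6.22), the tetraspanin Cd82 (5.83) and Notch3 (5.67) were the brightest. Further members in the top 10% included the Notch effector Rbpj (4.62), the cell adhesion molecule Ncam1 (4.57), Foxo1 (4.56) and Foxo3 (3.39), transcription factors of the quiescent state, the proteoglycan Sdc4 (4.52), the chemokine receptor Cxcr4 (3.85) and the cadherin Cdh15 (3.40). At the other end, the homeobox factor Six4 (−2.96), the BMP receptor Bmpr1a (−2.50) and the Wnt receptor Fzd7 (−2.20) were below the reference.

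Among the 7 markers, Pax7 stood highest at 3.91, 4.58 and 4.2 on Young 1, 2 and 3, within the top 5.27% of ranked genes. Cd34, on which the cells were sorted, read 2.46, 3.18 and 2.82. Vcam1, an adhesion molecule used to sort satellite cells, read 2.74, 2.79 and 2.73, and was the steadiest of the 7. Pax7 and Cd34 were both lowest on Young 1 and highest on Young 2, and Vcam1 differed by 0.06 or less between arrays.

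Myod1 read 2.48, 2.44 and 2.27 through its repeat-bearing probe. Calcr, the calcitonin receptor that holds satellite cells in their niche, read 0.82, 1.77 and 1.59. Itga7, the other sorting antigen, read 1.10, 1.46 and 0.89, so that 6 of the 7 markers exceeded the receptor reference on every array.

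Myf5, a myogenic factor that most satellite cells express or have expressed, was the exception at −3.26, −3.03 and −3.02, in the lowest 20% of the ranking (82.4% from the top). Its single probe consists of 15% G and C, and receptor probes with under 40% had a median level of −6.47, so its level is above the median of that class and below the common reference. How it stands to receptor probes as poor in G and C as itself, and the part of base composition in its level, was not tested.

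The markers were compared with the other groups by their values on each array. Pax7 was 4.23 ± 0.34 (SD, n = 3) in Young, 3.54 ± 0.15 (n = 3) in Old, 4.11 in both Geriatric samples, 3.62 ± 0.05 (n = 3) in SAMR1 and 3.68 ± 0.26 (n = 3) in SAMP8. The lowest Young value (3.91) lay above the highest Old value (3.70) and at the highest SAMP8 value (3.91). Myod1, read through its repeat-bearing probe, ranged from 1.23 to 1.56 in SAMR1 and from 1.94 to 2.48 over all other arrays. Myf5 was lowest in Old (−4.15 ± 0.92, SD, n = 3) and highest in Geriatric samples (−2.02 and −1.60), and its Young values (−3.26 to −3.02) did not overlap with those of any other group. Cd34, Vcam1, Calcr and Itga7 in Young overlapped with at least 1 other group. The share of all genes that separate groups of so few arrays in this way was not computed, so these separations are given as values only.

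**Figure D3:**
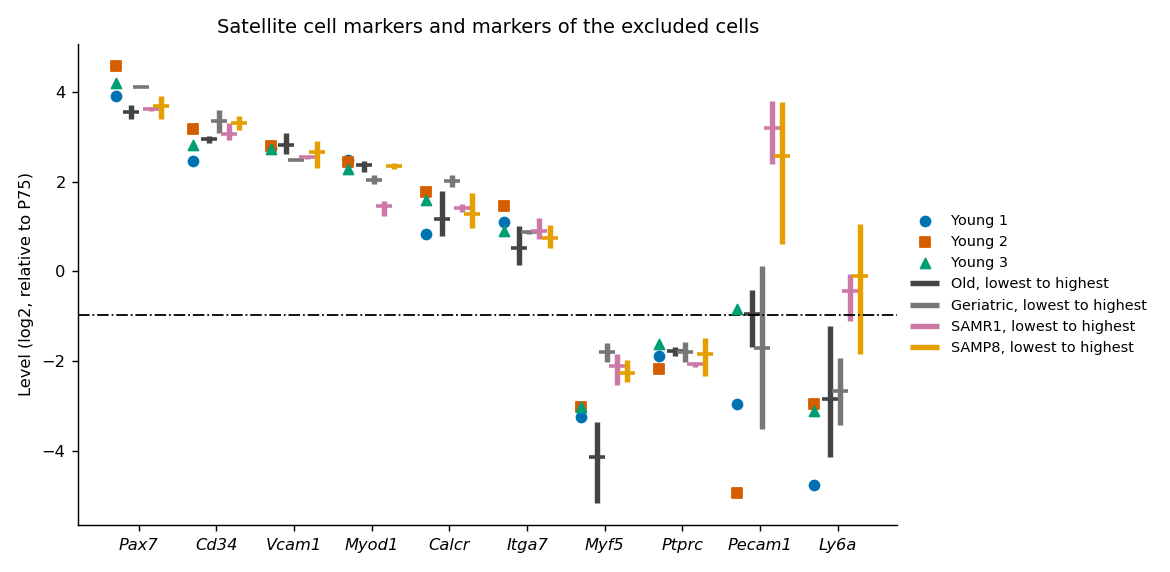
Levels (log2, relative to the 75th percentile, y axis) of the 7 satellite cell markers and of 3 genes of excluded cells, with each Young array as a point and the other groups as bars from the lowest to the highest array with a tick at the mean (n = 3, Geriatric n = 2). Pax7 to Itga7 lie above the dash-dotted receptor reference on every array, and Myf5, Ptprc and Ly6a lie below it on the Young arrays.

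Notch pathway genes exceeded the reference in 9 of 21 cases (42.9%, against 40.1% of all genes), and 5 were in the top 10%. The Notch receptors Notch3 (5.50, 5.88 and 5.64), Notch2 (4.0, 4.39 and 4.07) and Notch1 (3.94, 3.97 and 3.82) and the nuclear partner Rbpj were in the top 10%, as was the glycosyltransferase Rfng. Notch4, a receptor of endothelium, averaged −2.86. The Notch target genes Hey1 (1.65), Heyl (1.15) and Hes1 (0.32) exceeded the reference, whereas the target Hey2 averaged −4.54. Ligands were lower: Jag1 averaged −1.0, Dll4 −1.30, Dll1 −1.36 and Jag2 −3.37, all below the reference.

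Receptors through which satellite cells are known to be addressed exceeded the reference in 17 of 24 cases. Fgfr1, Fgfr4 and the Wnt co-receptor Lrp6 (4.94, 5.12 and 5.01) were in the top 10%. The activin receptor Acvr2b (2.92), the growth hormone receptor Ghr (2.72), the leukaemia inhibitory factor receptor Lifr (2.56) and the insulin receptor Insr (1.79) came next. Met, the receptor of hepatocyte growth factor, averaged −0.54, and Oxtr, the oxytocin receptor, −2.01.

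Genes of the extracellular matrix around the cell exceeded the reference in 21 of 25 cases, and 10 were in the top 10%. Sparc, a collagen-binding matrix protein, read 6.62, 6.50 and 6.47, the basement membrane proteoglycan Hspg2 6.04, 6.07 and 6.08, and Col6a2 of collagen VI 5.21, 5.36 and 5.14. Col5a1 (4.45), Col5a3 (3.50), Lamb2 (4.14), Lama2 (3.37) and the heparan sulphate proteoglycan Agrn (3.64) were further members of the top 10%. Fibronectin (Fn1, −0.54) was near the reference and tenascin C (Tnc, −2.28) below it.

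Genes of activation and differentiation were lower than those of identity, with a median level of −1.36. Of 25, 12 exceeded the reference (48%, against 40.1% of all genes), and without repeat-bearing probes the share was 41.7%, against 39%. Of the 3 in the top 10%, Mef2a (7.38) was ranked through a repeat-bearing probe and averaged −4.70 through its other probe. Des, an intermediate filament of muscle, read 6.29, 6.59 and 6.44, and Tnnt1, a troponin of slow fibres, 3.30, 3.28 and 2.66. Below the reference lay Myog, the factor of terminal differentiation (−0.52, −1.55 and −2.76), Mymk, which fuses myoblasts and is called Tmem8c on the array (−0.77, −1.82 and −2.79), Myf6 (−2.81) and the embryonic myosin Myh3 (−4.0). Mstn, the gene of myostatin, was not well above background on any array. Myog, Mymk and Myh3 were highest on Young 1, and Myog and Mymk were lowest on Young 3.

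Transcripts of the mature fibre exceeded the reference in 8 of 24 cases (33.3%, against 40.1% of all genes), and in 5 when the detected probes of a gene were averaged. Of the 8, 1 was in the top 10%, the calcium pump Atp2a1 (4.92, 4.84 and 4.68). Skeletal actin Acta1 averaged 1.80 and the ryanodine receptor Ryr1 0.92. The creatine kinase Ckm (−4.76) and myoglobin (Mb, −4.0), which are among the most abundant products of fibres, were below the reference, and the fast myosin Myh1 was well above background on 1 array.

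Cell cycle genes had a median level of −1.59, with 10 of 30 above the reference (33.3%, against 40.1% of all genes). The D-type cyclins Ccnd1 (4.58) and Ccnd3 (3.39) were the members in the top 10%. Genes of S phase and mitosis lay on both sides of the reference. The replication helicase genes Mcm4 (2.0), Mcm7 (1.57), Mcm6 (0.61), Mcm2 (−0.17) and Mcm3 (−0.45), the replication clamp gene Pcna (−0.31) and Birc5 (−0.14) exceeded it. Cdk1 averaged −1.25, Rrm2 −3.50 and Top2a −4.46, and Aurkb was not well above background on any array. Among cell cycle inhibitors, Gas1 (4.23), a protein of arrested cells, and Btg1 (3.45) were in the top 10%. Cdkn1a, Cdkn1c and Cdkn1b, inhibitors of cyclin-dependent kinases, averaged 2.82, 2.74 and 2.15, while Cdkn2b averaged −1.76 and Cdkn2a −4.10.

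The brightest list was that of immediate early and isolation stress genes, called the immediate early list below. Immediate early genes respond to stress and growth signals within minutes and are known to be switched on during muscle dissociation. Not every member is such a gene, since the list also holds chaperones such as Hspa8, Hspa1a, Hspb1 and Dnajb1. Of its 37 members, 35 exceeded the reference and 27 were in the top 10%, with a median level of 4.18. Beside Fosb, Junb read 7.04, 7.27 and 7.14, Jun 6.53, 6.71 and 6.59, Egr1 6.29, 6.57 and 6.51, and Jund 6.15, 6.39 and 6.26. Fos itself averaged 4.39, the phosphatase Dusp1 5.31, Atf3 5.30, the signalling inhibitor Socs3 5.64 and the heat shock proteins Hspa8 and Hspa1a 5.83 and 4.28. Young 2 was the highest of the 3 arrays for Junb, Jun, Egr1 and Jund. The arrays do not show which of these transcripts were present before isolation, and every sample of the series passed through the same kind of sort.

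**Figure D4:**
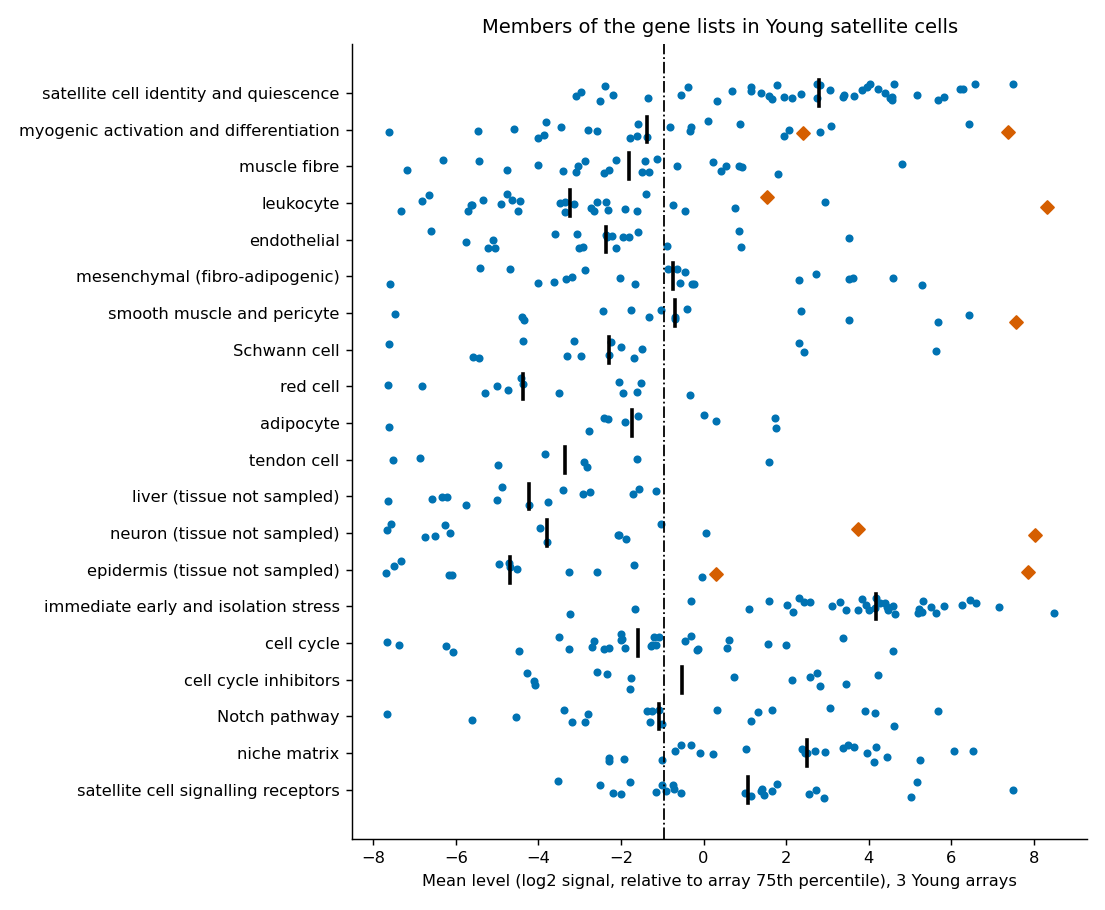
Mean level on the 3 Young arrays (log2, relative to the 75th percentile, x axis) of every measured member of 20 gene lists (rows), with diamonds for genes ranked through a repeat-bearing probe, black ticks for list medians and the dash-dotted line for the receptor reference. The medians of the immediate early and isolation stress list (4.18), satellite cell identity (2.79) and niche matrix (2.50) lie to its right. Those of liver (−4.24) and epidermis (−4.69) lie to its left.

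Markers of the cells that the sort discards averaged below the reference apart from repeat-bearing probes. Ptprc (CD45), present on all leukocytes, read −1.90, −2.18 and −1.63. Ly6a, which encodes Sca1, read −4.76, −2.97 and −3.12. Pecam1 (CD31), of endothelium, read −2.96, −4.95 and −0.85. It was not well above background on Young 2 and exceeded the reference on Young 3.

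Of 30 leukocyte genes, 6 exceeded the reference against 40.1% of all genes, and 5 did so without repeat-bearing probes. Itgam is the one lost, and Cd4, which averaged 1.53 through a repeat-bearing probe, averaged −0.37 through its other probe. The lymphocyte genes Nkg7 (0.75), Cd8a (−0.45) and Ncr1 (−0.74) exceeded it through probes that were not repeat-bearing. The macrophage receptor gene Csf1r averaged 2.94 on 1 probe and −1.84 and −2.43 on 2 others, and macrophage genes Cd68 (−2.37), Lyz2 (−3.13) and C1qa (−4.45) were below the reference. Of 20 endothelial genes, 4 exceeded it: Tek (2.99, 3.85 and 3.74), an angiopoietin receptor, was in the top 10%, and Kdr averaged 0.91, Ly6c1 0.86 and Eng −0.88. The defining endothelial genes Cdh5 (−5.10) and Tie1 (−3.02) were low as means, although Tie1 exceeded the reference on Young 3.

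Genes of connective tissue were mixed. Col3a1 (5.15, 5.35 and 5.32), Pdpn (4.58), Dcn (3.63) and Thy1 (3.53) were in the top 10%. Of 22 mesenchymal genes, 12 exceeded the reference (54.5%, against 40.1% of all genes). Pdgfra, the receptor that defines fibro-adipogenic cells, was not well above background on any array, at −7.55, −7.67 and −7.58. Of the smooth muscle and pericyte list 8 of 15 exceeded the reference (53.3%). These included Mcam through a repeat-bearing probe and Des and Notch3, which other lists here also hold. Without repeat-bearing probes the share was 46.7%, against 39% of all genes. Acta2, smooth muscle actin, read 3.98, 3.49 and 3.11, while Myh11 averaged −1.33 and the pericyte genes Rgs5 and Pdgfrb −4.40 and −4.35. In bulk RNA, a few cells of another type and a low level in all cells cannot be told apart.

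Tissues that were not sampled set the scale for these values. None of 15 liver genes exceeded the reference, and albumin (Alb) was not well above background on any array. Neuronal and epidermal lists had 3 of 15 members each above it, and without repeat-bearing probes 1 of 14 each. Among red cell genes 1 of 13 exceeded it, and among tendon genes 1 of 8.

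Transcripts of the sex chromosomes went against the labels of the Young samples. Xist, the RNA that coats the inactive X chromosome of female cells, read 5.86, 5.62 and 5.59. The Y-linked genes Ddx3y, Uty and Kdm5d reached no more than −7.11 on a Young array and were never well above background there, whereas Eif2s3y averaged −1.53, also below the reference. The Old arrays gave the same pattern (Xist 5.08 to 5.55), whereas Ddx3y was well above background on every Geriatric, SAMR1 and SAMP8 array. Differences of Young from those 3 groups therefore cannot be told apart from differences in sex-linked transcripts.

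The 3 Young arrays were alike over the whole ranking and diverged in defined gene groups. Pearson correlations across the 28270 genes were 0.9776 between Young 1 and 3, 0.9689 between Young 1 and 2 and 0.9693 between Young 2 and 3. These describe arrays, since genes are not independent replicates. The median SD per gene was 0.305, 0.205 within the top 10% and 0.446 in the lowest 10%, against medians over each group's own ranked genes of 0.345 in Old, 0.258 in SAMR1 and 0.370 in SAMP8. A range over 1 log2 between the Young arrays occurred in 3.15% of the top 10% and 20.4% of all ranked genes. Genes in which 1 array stood more than 1 log2 from the mean of the other 2, while those lay within 0.5 of that distance of each other, numbered 1713 for Young 2, 925 for Young 1 and 856 for Young 3.

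Young 1 was high in genes of proliferation. Its replication-dependent histones lay a median of 1.03 above the mean of the other arrays, with 38 of 40 higher, where the median over all ranked genes was 0.03. H2bc14, an H2B histone called Hist1h2bm on the array, read 4.73, 1.90 and 2.42 on Young 1, 2 and 3, and H2ac11 4.45, 2.09 and 2.88. The cell cycle list followed, with 21 of 26 ranked members higher and a median of 0.77. Picked after their values were seen, the proliferation marker Mki67 read 0.64, −1.47 and −2.38, Birc5 of the mitotic machinery 1.41, 0.13 and −1.98, and Ccna2 was well above background on Young 1 alone, at −3.41. Cdkn1c, an inhibitor of the cell cycle, was ordered the same way at 4.07, 2.83 and 1.31. Ribosomal proteins (92 of 95 higher, median 0.36) and oxidative phosphorylation genes (74 of 77, median 0.40) were also higher on Young 1.

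Young 2 was low in histones and higher in several gene groups, among them the satellite cell list. Histones lay a median of 1.18 below the other arrays, with 5 of 40 higher, and the H4 genes H4c12 (6.72, 4.91 and 6.44) and H4c14 (6.79, 5.07 and 6.49) set it apart. Of the satellite cell list 38 of 42 genes were higher on Young 2, by a median of 0.31. So were 35 of 37 genes of the immediate early list (0.27), 16 of 19 Notch genes (0.31) and 22 of 25 matrix genes (0.24). The rise was not particular to these lists, since 30 of 32 SR and hnRNP splicing factors (0.20) and 18 of 23 genes of class I antigen presentation (0.42) were also higher. The medians over all ranked genes were −0.04 for Young 2 and 0.04 for Young 3. Some Schwann cell genes, chosen after their values were seen, were brightest there too: Mbp, a structural protein of myelin, read −2.35, 0.20 and −2.36, and S100b, a marker of glial cells, −3.44, −1.85 and −4.61. Sox10, the transcription factor of Schwann cells, was instead lowest on Young 2 (−1.33, −2.56 and −1.16). Of the 15 Schwann cell genes 3 exceeded the reference as a mean, and the list's mean was −2.38, −1.56 and −2.41.

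Young 3 was high in the receptor genes used as background, whereas the lists of vessel and blood genes were mixed. The endothelial list averaged −2.87, −2.93 and −1.74 on Young 1, 2 and 3 and the leukocyte list −3.05, −3.03 and −2.41. Over the members that were ranked, 8 of 13 endothelial genes (median 0.29) and 16 of 20 leukocyte genes (median 0.31) were higher on Young 3, as were 15244 of all 28270 ranked genes, so the endothelial count is near that of all genes. Of 8 ranked red cell genes 4 were higher on Young 3 (median 0.22) and 5 on Young 1 (median 0.23). Genes singled out after their values were seen were the endothelial receptor Tie1 (−5.75, −3.00 and −0.32), Egfl7 (−3.21, −2.72 and −1.09) and the globin Hba-a1 (−1.25, −1.27 and 1.54). Vomeronasal receptor genes, which served as background, were also higher on Young 3, in 108 of 118 cases and by a median of 0.61, so a difference of that size occurred in genes these cells are not known to use. In the top 10%, the cholesterol synthesis genes Hmgcs1 (3.20, 3.41 and 2.37) and Fdft1 (4.29, 4.26 and 3.41) were among the 6 genes in which Young 3 departed most, and both were lower there. The part that other cells or background had in these differences was not tested.

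**Figure D5:**
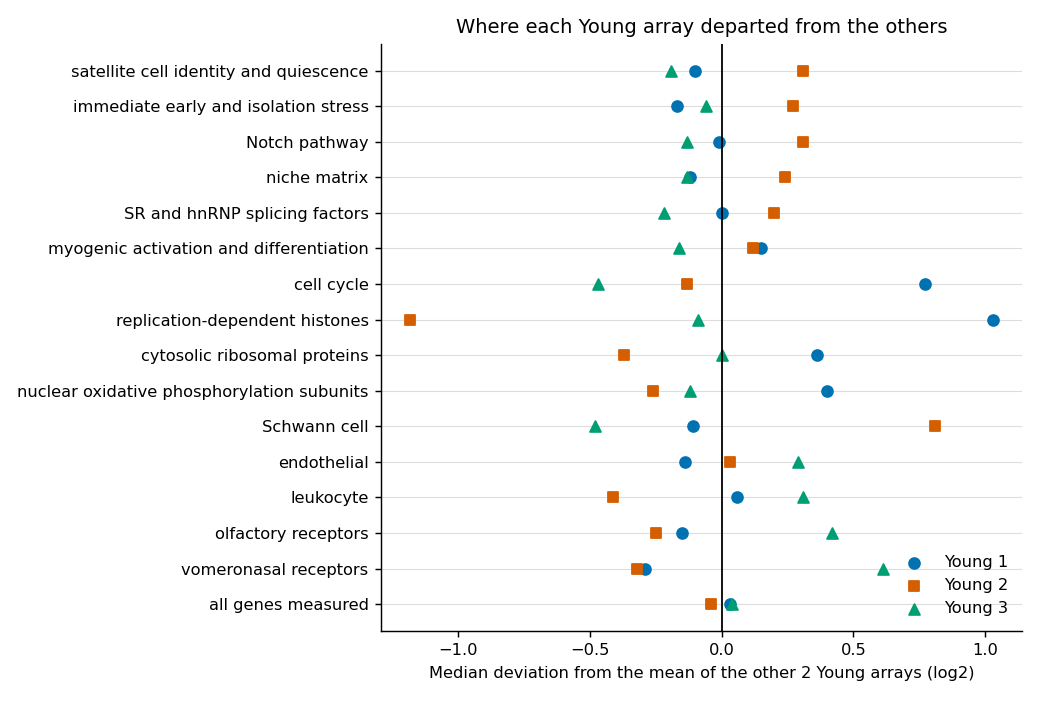
Median difference (log2, x axis) of each Young array from the mean of the other 2 over the ranked members of 15 gene groups and all ranked genes (rows). Histones separate Young 1 (1.03) from Young 2 (−1.18), satellite cell genes lie to the right on Young 2 (0.31), and vomeronasal receptors on Young 3 (0.61).

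Array, slide and age cannot be told apart within the Young group. Array identifiers place Young 1 and 3 on 1 slide and Young 2 on the other, a reading that no label states, and Young 3 alone was from mice of 3 months. The slide difference was therefore measured in the 11 arrays of the other groups with limma, with group as a term: 353 of 32862 genes (1.07%) passed a Benjamini-Hochberg adjusted p of 0.05, of which 336 were lower on the slide of Young 2. In the Young arrays, which that fit did not use, 347 of these 353 (98.3%) differed in the same direction, against 66.7% of all genes tested. Of the medians above, that of the matrix genes was 0.24 in the other groups and 0.24 in Young. For satellite cell genes the corresponding medians were 0.13 and 0.31, and for the immediate early list 0.07 and 0.27. For histones they were −0.18 and −1.20, and for the Schwann cell list −0.11 and 0.97. No member of these 5 groups passed the slide test, against 1.07% of all genes, a share that would leave few calls in groups of this size.

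Old satellite cells gave the nearest comparison for the baseline, of the same strain and with the same sex-linked pattern. By limma over all 14 arrays, 472 of 32862 genes (1.44%) passed an adjusted p of 0.05 between Old and Young, 393 higher (1.2%) and 79 lower (0.24%) in Old. In the top 10% of the Young ranking 17 of 2827 (0.601%) passed, 7 higher and 10 lower in Old. Among genes that were tested but not ranked in Young, 200 of 4592 (4.36%) passed, 197 of them higher in Old. None of these genes had a probe well above background on every Young array, and they entered the test through 2 or more arrays of some group. That choice itself favours calls that are higher in Old. Chemosensory receptor genes were higher in Old as well, by a median of 0.85 against 0.06 for all genes, and 33 of 1008 passed, all higher in Old. Higher calls among dim genes came with a higher signal of receptor genes in Old, whose part in them was not tested. The receptor genes tested had passed the same filter. Negative control spots overlapped between the groups, with median levels of −7.786, −7.365 and −7.667 in Old and −7.582, −7.673 and −7.637 in Young. Leaving out Old 1 brought the count to 74, Young 1 to 143, Old 2 to 291, Young 2 to 312 and Old 3 to 791, and the 6 Young and Old arrays alone gave 54.

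Within the satellite cell list 1 of 42 genes was higher in Old and none lower, and none of 24 tested genes of activation and differentiation passed. Over all genes tested 1.44% passed, so counts this small do not set these lists apart from other genes. The satellite cell gene that passed was Foxo3 (3.14, 3.61 and 3.42 in Young, 4.06, 4.28 and 4.55 in Old; 0.91 ± 0.20, SE, limma adjusted p = 0.0493). It stayed past the threshold under 3 of 14 alternative settings, and its difference was 0.02 with the mean of its probes. Pax7 was lower in Old by 0.69 on the log2 scale (SE 0.21, limma adjusted p = 0.128), and with slide as a block it passed (−0.78, adjusted p = 0.0433). None of the other 6 markers passed, with adjusted p from 0.198 (Myf5) to 0.937 (Myod1) by limma.

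The highest ranked Young genes that passed in each direction were not repeat-bearing. Plac9, a small secreted protein gene, read 5.69, 5.64 and 6.07 in Young and 1.58, 1.62 and 1.88 in Old, a difference of −4.11 ± 0.24 (SE; limma adjusted p = 1.88e-05) that held under all 14 alternative settings. Apoe, the lipid carrier apolipoprotein E, was higher in Old (6.11, 6.55 and 6.35 against 7.11, 7.16 and 7.22; 0.83 ± 0.16, adjusted p = 0.0344). Ccl19, a chemokine, rose by 1.21 ± 0.20 (adjusted p = 0.0183) and Cox6b1, a respiratory chain subunit, by 0.97 ± 0.20 (adjusted p = 0.0417). Rgs2, a regulator of G protein signalling (−0.96 ± 0.19, adjusted p = 0.0333), Bcl2l1, which protects cells from death (−0.94 ± 0.19, adjusted p = 0.036), and Cpsf1, of mRNA 3′ end processing (−1.07 ± 0.18, adjusted p = 0.0183), were lower in Old. These calls were less firm than that of Plac9: of 14 alternative settings, the call was lost under 9 for Bcl2l1, 8 for Rgs2 and Cox6b1, 7 for Apoe, 5 for Cpsf1 and 2 for Ccl19.

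Other list members with a difference included the pericyte receptor Pdgfrb (−4.35 ± 0.59 in Young, −1.91 ± 0.13 in Old, SD, n = 3; limma adjusted p = 0.00609), the potassium channel subunit Abcc9 (−1.03 ± 0.19 and −3.73 ± 0.63; adjusted p = 0.0123), the matrix gene Fn1 (−0.54 ± 0.23 and −2.25 ± 0.28; adjusted p = 0.0219) and the oncostatin M receptor Osmr (−1.14 ± 0.55 and 1.24 ± 0.40; adjusted p = 0.0105). Pdgfrb and Osmr were higher in Old, and Abcc9 and Fn1 were lower. Pdgfrb and Abcc9 are both on the smooth muscle and pericyte list. Of its 14 tested genes 2 were higher in Old, Pdgfrb and Synpo2 (1.71), and 1 was lower. Dusp6 (−1.18) and Maml2 (0.82) also passed. Of 14 alternative settings, the call was lost under 5 for Fn1, 2 for Abcc9 and 1 each for Pdgfrb and Osmr.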

How the data were processed

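Expression was measured in 14 samples on single-colour arrays of mouse genes. Per the file headers, Agilent Feature Extraction 10.7.3.1 wrote the scanner intensity of each spot, and the deposited processed signal is already background-subtracted. The authors also deposited a table of log2 values, used as an alternative. RNA was amplified before labelling, per the labels' protocols, so signals do not scale simply with RNA amount. Control spots and outlier spots were left out, spots of a probe were averaged, and log2 intensities were reduced by the array's 75th percentile over 55681 probes. Probes were 60 bases long. Accessions gave 26300 probes a current RefSeq symbol, 2044 carried one already and 27337 matched neither way. Tests between groups used two-sided limma 3.58.1 fits (eBayes; R 4.3.3) in which all groups shared 1 spread, with an adjusted p threshold of 0.05, over probes that 2 or more arrays of some group had well above background. They were checked on simulated data. In that fit a gene's probe was chosen over all arrays. Genes named are the 7 markers, the 20 highest ranked genes with a symbol, the 3 highest of each list, sort and sex-linked genes, the 6 genes of the top 10% in which each Young array deviated most, and the highest ranked genes that passed Old versus Young; others were chosen after their values were seen. Members and lists were chosen with earlier results of these data known. The labels call the samples biological replicates. The array's scan was not examined as a batch, and slides were read from array identifiers. Alternatives covered background correction, normalization, probe choice, filters, slide and replicate blocks and leaving out arrays.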

Additional observations from a re-analysis of the deposited data

How the results depend on the processing

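Under every alternative run, the count of ranked genes and the share of repeat-bearing probes among the 200 highest kept within 1.5 times of the values given. So did the top 10% counts of the satellite cell and immediate early lists and of ribosomal genes. The exception is that the share of repeat-bearing probes has no value once those probes are left out. The correlation of Young 1 and 2 was 0.9758 with normexp background correction and quantile normalization, 0.9758 with the authors' values and 0.9636 with no filter on dim probes. Old versus Young gave 777 genes with the authors' values (581 higher in Old), 779 with normexp and quantile normalization (582 higher), 729 with slide as a block (524 higher) and 54 with the Young and Old arrays only, against 472 (393 higher). Leaving out 1 array gave 74 to 791 genes. The replicate block gave 237. Same-numbered Young and Old samples did not deviate together (correlations −0.247, −0.213 and −0.255). Each such pair was split between the slides, so these correlations cannot tell whether the numbers pair the samples. The slide difference gave 733 genes with normexp, 733 with the authors' values and 133 with no filter. The causes of these changes were not tested. With 3 arrays a group, signal near background limits dim genes most.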
